A study of Mus musculus with 8 samples.

Results

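mmu-miR-451, mmu-miR-144-3p, mmu-miR-144-5p and mmu-miR-486-3p (mmu marks the mouse and is left out from here on) are the entries of the array that carry the names of the erythroid cluster of miR-144 and miR-451 or of miR-486. They were taken by name from the 1079 murine miRs on the array, and these 4 are all that carry those names. The rule uses names and no measured value, although it was drawn up with earlier results of these data known. The array lists no miR-486-5p. It does list miR-3107-5p and miR-3107-3p, whose gene has the synonym mir-486b in RefSeq, and these were described beside the 4 members without being counted among them.

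The RNA came from callus, the repair tissue at a fracture, of adult CD-1 mice of both sexes, taken 7 days after the femur had been cut and held with a pin and clip. In the Non-union group (4 mice, P13 to P16) the clip kept a gap of 1.8 mm and the periosteum beside the cut was stripped, a model in which the bone does not heal. In the Union group (4 mice, P17 to P20) the gap was 0.25 mm, which heals. All mice had an osteotomy and the same pin and clip, none was uninjured, and the groups were set by surgery and not by outcome. Each mouse gave 1 single-colour array of the same slide, and each group filled 1 row of it, so that group and row cannot be told apart.

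MiRs are short RNAs that guide Argonaute proteins to partly matching messenger RNAs, mainly through the seed, bases 2 to 8 of the miR. MiR-144 and miR-451 are cut from 1 primary transcript that GATA1, the master factor of the erythroid lineage, switches on, and miR-451 is among the most abundant miRs of red blood cells. MiR-144 is processed by Drosha and Dicer in the usual way. MiR-451 skips Dicer, because its stem is too short, and is instead cut by Argonaute 2. MiR-486 lies in the gene of ankyrin 1, a protein of the red cell membrane skeleton that is also made in muscle, and miR-486 is abundant both in erythroid cells and in skeletal muscle. In callus, miR-451 and miR-144 were therefore read as miRs of the erythroid lineage, and miR-486 as one of that lineage or of muscle. The cells that held them were not tested.

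The mature sequences are shown to make the seeds comparable, with the seed in capitals. RefSeq (build GRCm38.p6) held 3 of the 4 members, miR-451 under the name miR-451a. All 3 lie on the plus strand of chromosome 11, at chr11:78073186-78073207 for miR-451, chr11:78073047-78073066 for miR-144-3p and chr11:78073010-78073032 for miR-144-5p.
miR-451: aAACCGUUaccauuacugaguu
miR-144-3p: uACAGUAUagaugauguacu
miR-144-5p: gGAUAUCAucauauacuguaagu
No seed was shared among them, and no other mature mouse miR of the RefSeq table had any of these 3 seeds over bases 2 to 8. MiR-101a-3p had bases 2 to 7 in common with miR-144-3p, and differed at the last base of the seed.
miR-101a-3p: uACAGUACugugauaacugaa

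The hairpins are shown because they carry the difference in processing, with the mature miRs in capitals. The hairpin of miR-144, at chr11:78073005-78073070, is 66 bases long and holds one mature miR on each arm.
Mir144: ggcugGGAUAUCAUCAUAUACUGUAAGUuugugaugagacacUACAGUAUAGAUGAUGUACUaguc
The hairpin of miR-451, at chr11:78073170-78073241, is 72 bases long.
Mir451a: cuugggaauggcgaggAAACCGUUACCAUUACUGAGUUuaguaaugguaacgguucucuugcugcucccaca
In the fold of lowest free energy by RNAfold, the loop of the miR-451 hairpin spanned bases 35 to 38, and the last 4 bases of the mature miR, which covers bases 17 to 38, lay in it. In the miR-144 hairpin the loop spanned bases 31 to 36 and neither mature miR reached it. The hairpins are 99 bases apart. They lie between the protein-coding genes Flot2 and Eral1, and Mir451b overlaps Mir451a. Mir486 and Mir3107 overlap each other and lie in Ank1 on chromosome 8, as the same table has it.

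The arrays differed in brightness. The scanner software called between 324 and 391 murine miRs detected on an array. Without the members and miR-3107, the summed signal of the detected murine miRs ran from 180348 units on P16 to 342843 units on P17, so that P17 was the brightest array and P16 the dimmest apart from the miRs described here. A merged signal is the background-corrected signal that the software gave a miR, summed over those of its probes that were called detected, in linear scanner units. The lowest signal called detected was between 2.16 and 2.39 units on the 8 arrays.

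MiR-451, miR-144-3p and miR-144-5p were detected on all 8 arrays, as were 310 of the 1079 murine miRs. MiR-486-3p was detected on 7 arrays and missed on P16. MiR-3107-5p was detected on all 8 arrays and miR-3107-3p on 5, the calls missing on P15, P16 and P20. Each miR had 40 spots on an array, none of them saturated, and the number of arrays limits the precision.

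The merged signal of miR-451, the red cell miR of the cluster, was 3895, 9110, 2846 and 2983 units on the Non-union arrays P13 to P16. It was 15956, 6380, 3194 and 2881 units on the Union arrays P17 to P20. P17, P14 and P18 were high and the other 5 arrays low, so that each group held high and low arrays and the groups overlapped. The software gave each of these signals an error of 7.22% to 7.28%. P15, P20, P16 and P19 lay within that error of their neighbours in the order, whereas the highest array was 5.61-fold above the lowest.

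The merged signal of miR-144-3p, the guide arm of its hairpin, was 154, 338, 108 and 105 units on P13 to P16 and 670, 251, 112 and 162 units on P17 to P20. That of miR-144-5p, the other arm, was 8.36, 21.2, 5.65 and 6.53 units on P13 to P16 and 50.1, 16.1, 6.84 and 7.40 units on P17 to P20. P17, P14 and P18 were again the 3 highest arrays for both arms, and the groups overlapped. The highest array was 6.37-fold above the lowest for miR-144-3p and 8.87-fold for miR-144-5p. The software error reached 25.8% for miR-144-5p, against at most 7.42% for miR-144-3p.

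The merged signal of miR-486-3p was 6.87, 13.5 and 6.02 units on P13 to P15, with no detection on P16, and 38.3, 15.3, 7.82 and 6.05 units on P17 to P20. Its highest 3 arrays were P17, P18 and P14, and its error reached 25.9%. MiR-3107-5p, the entry from the miR-486 locus that all arrays detected, gave 184, 255, 144 and 69.9 units on P13 to P16 and 415, 243, 183 and 115 units on P17 to P20. P17, P14 and P18 led here too, and P16 was the lowest array by a wide margin. P16 was also lowest for miR-144-3p, but within the error of P15. Where it was detected, miR-3107-3p lay between 4.88 units on P13 and 23.0 units on P17.

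The question of the comparison was whether these miRs differ between a callus that heals and one that does not. On the normalized scale, log2 of the merged signal after quantile normalization, no group difference beyond the spread between arrays was found for any of the 3 cluster miRs. MiR-451 was at 12.19 ± 0.73 (SD, n = 4) in the Non-union group and at 12.20 ± 0.73 (SD, n = 4) in the Union group. Non-union minus Union gave a difference of -0.01 with a 95% interval of -1.02 to 1.0 (limma, SE 0.45, adjusted p = 0.991; two-sided exact permutation test, p = 0.971). The interval spans about a doubling or a halving, so that differences of up to about that size remain possible with 4 arrays a group.

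**Figure D1:**
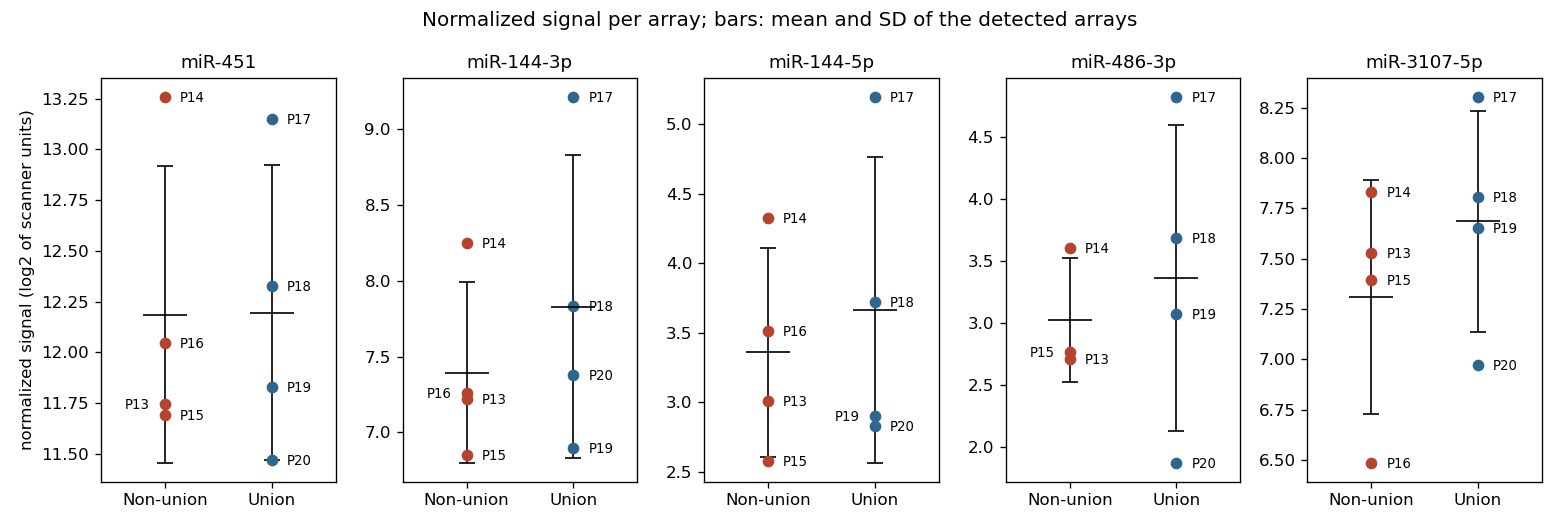
Normalized signal (log2 of scanner units, a separate axis range for each miR) of miR-451, miR-144-3p, miR-144-5p, miR-486-3p and miR-3107-5p on each array, Non-union in red and Union in blue, with specimen names; the black bars are the mean and SD of the arrays on which the miR was detected. The groups overlap in every panel, P17 and P14 are the 2 highest arrays for miR-451, at 13.15 and 13.26, and P16 is the lowest for miR-3107-5p, at 6.48.

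MiR-144-3p was at 7.39 ± 0.60 (SD, n = 4) in the Non-union group and at 7.83 ± 1.0 (SD, n = 4) in the Union group. Its difference came to -0.43 with a 95% interval of -1.56 to 0.69 (limma, SE 0.50, adjusted p = 0.562; two-sided exact permutation test, p = 0.514). MiR-144-5p was at 3.36 ± 0.75 (SD, n = 4) and 3.66 ± 1.1 (SD, n = 4), a difference of -0.30 with a 95% interval of -1.58 to 0.97 (limma, SE 0.56, adjusted p = 0.726; two-sided exact permutation test, p = 0.629). Both differences were smaller than the spread between arrays of 1 group. Without P17 they were 0.03 and 0.22, on the other side of 0.

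MiR-3107-5p was at 7.31 ± 0.58 (SD, n = 4) in the Non-union group and at 7.68 ± 0.55 (SD, n = 4) in the Union group. Its difference came to -0.38 with a 95% interval of -1.19 to 0.44 (limma, SE 0.36, adjusted p = 0.500; two-sided exact permutation test, p = 0.40). For miR-486-3p the fit left out the Non-union array P16, where it was not detected and both its probes were at their lowest. The difference over the other 7 arrays was -0.44 with a 95% interval of -1.66 to 0.78 (limma over 324 miRs, SE 0.53, adjusted p = 0.680). Over all 8 arrays the brighter probe of miR-486-3p had an unnormalized difference of -1.21, with P16 at 1.31 units, below the lowest signal detected there. That value was not tested. In these fits no difference was seen beyond the spread between arrays for either miR, with P16 missing for miR-486-3p.

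By the threshold of the study, an unadjusted p of 0.05, 0 of the 3 members tested passed, in the limma fit or in the exact permutation test. Of all 310 miRs tested, 43 passed in the limma fit, 13.9%. After Benjamini-Hochberg adjustment none of the 3 passed, against 1 of 310 miRs, 0.323%. Groups that did not overlap were found for none of the 3 members and for 12 of 310 miRs, 3.87%. None of the 3 differed by 2-fold or more, as did 26 of 310 miRs, 8.39%. Had a difference been found, a change in the number of blood cells and one in RNA per blood cell could not be told apart in bulk tissue.

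**Figure D2:**
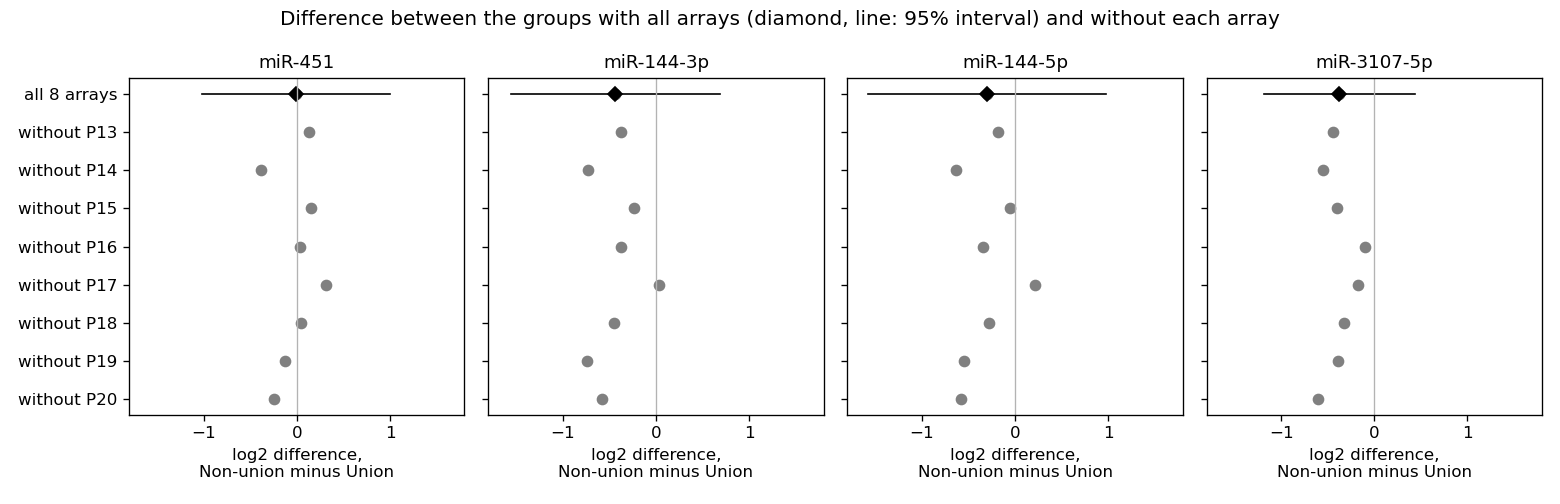
Log2 difference of Non-union minus Union for miR-451, miR-144-3p, miR-144-5p and miR-3107-5p, with all 8 arrays (diamond, with its 95% interval as a line) and with each array left out in turn (grey points). For miR-451 the points fall on both sides of 0, from -0.38 without P14 to 0.31 without P17.

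The spread within the groups was wide for these miRs. The residual SD of the fit was 0.73 for miR-451, 0.82 for miR-144-3p, 0.94 for miR-144-5p and 0.56 for miR-3107-5p, beside a median of 0.44 over the 310 miRs. From the most variable down, miR-144-5p was number 21 of the 310, miR-144-3p number 33, miR-451 number 48 and miR-3107-5p number 90. These are descriptions, and low signals such as that of miR-144-5p carry a larger measurement error.

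Each of these miRs had 2 probes of 20 spots, and for miR-451 and miR-144-3p both probes gave like differences. For miR-451 the unnormalized difference of Non-union minus Union was -0.39 for one probe and -0.42 for the other, and for miR-144-3p it was -0.62 and -0.56. The array order of these 2 miRs is therefore not that of a single probe. The merged signal was found to be the sum of those probes that the software had called detected, which matched 2896 of 2896 detected values to within 0.1%. For miR-144-5p and miR-486-3p this sum held 2 probes on P17 and 1 probe on every other array that detected them. P17 had the highest signal for the brighter probe alone as well, where the brighter probe of miR-144-5p gave 38.3 units on P17 and 5.65 units on P15, the lowest array, a ratio of 6.78. The weaker probe of miR-144-5p had spots well above background on 2 arrays only, 20 of 20 spots on P17 and 1 of 20 on P18. Its difference was -0.90 against -0.57 for the brighter one. Apart from P17, its signal lay between 0.89 units on P15 and 4.25 units on P14, near the floor. The weaker probe of miR-3107-3p was below 0 on every array but P17. With both probes summed on every array, the normalized difference of miR-144-5p was -0.34.

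**Figure D3:**
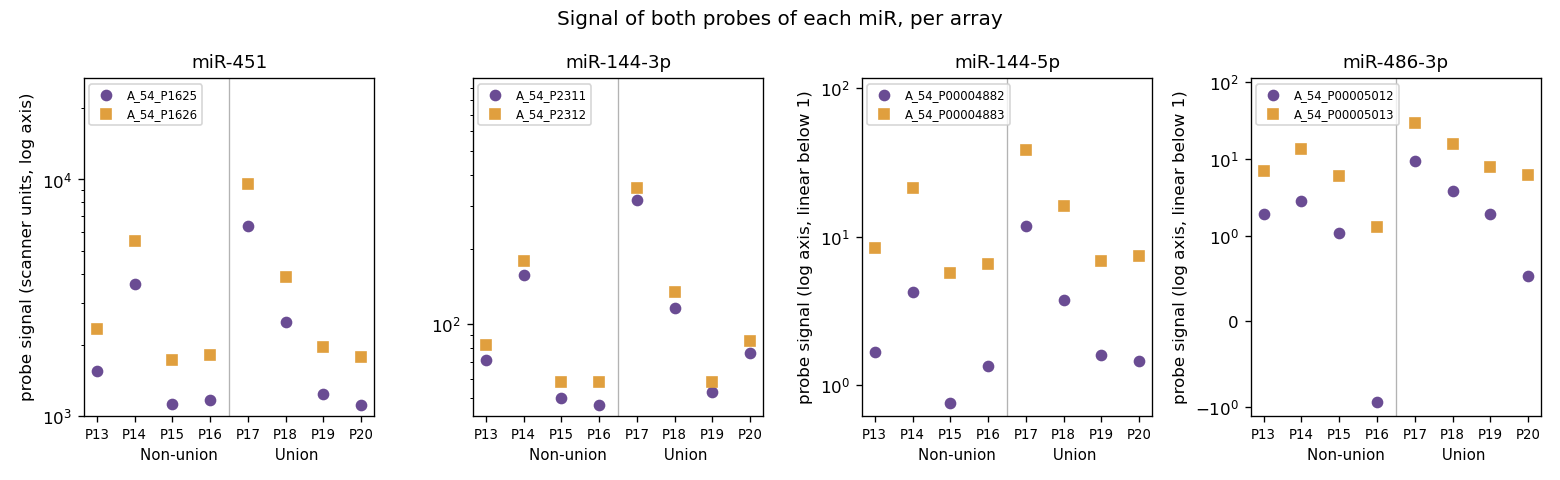
Signal of both probes of miR-451, miR-144-3p, miR-144-5p and miR-486-3p on each array, in scanner units on a log axis that is linear below 1 in the right pair of panels; circles and squares are the probes, and the grey line separates the Non-union arrays on the left from the Union arrays on the right. Both probes of each miR are highest on P17, and on P16 both probes of miR-486-3p are at their lowest, at 1.31 and -0.95 units.

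Over the 8 arrays, the signals of the cluster members ran together, most firmly those of miR-451 and miR-144-5p. The normalized signals of miR-451 were 11.75, 13.26, 11.69 and 12.05 on P13 to P16 and 13.15, 12.33, 11.83 and 11.47 on P17 to P20. Those of miR-144-5p were 3.01, 4.33, 2.58 and 3.52, then 5.20, 3.72, 2.90 and 2.83. The Pearson r between them was 0.93 and the Spearman rho 0.93 (two-sided exact permutation tests over 8 arrays, p = 0.00126 and 0.00223; adjusted over the 15 relations computed, p = 0.00794 and 0.0335). P14 and P17 lay farthest from the median of miR-451, and r was 0.88 without them (exact permutation p = 0.0167). With other processing of all 8 arrays, r was between 0.89 and 0.99. Normalization changed the order of the dim values of miR-144-5p. P16 was above P13 after it, at 3.52 and 3.01, but below P13 in merged signal, at 6.53 and 8.36 units.

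The signals of miR-144-3p were 7.22, 8.25, 6.85 and 7.26 on P13 to P16 and 9.21, 7.83, 6.90 and 7.38 on P17 to P20. Its r with miR-451 was 0.87 and its rho 0.71 (two-sided exact permutation tests, p = 0.00662 and 0.0576; adjusted p = 0.0142 and 0.0960). Without P14 and P17 this r was 0.57 (exact permutation p = 0.238), so that the relation with miR-451 rests on those arrays. The arms of miR-144, which come from the same hairpin, had an r of 0.96 and a rho of 0.86 (two-sided exact permutation tests, p = 0.000694 and 0.0107; adjusted p = 0.00794 and 0.0536). Without P14 and P17 their r was 0.79 and did not pass over the 6 arrays left (exact permutation p = 0.0583). With each group centred on its own mean, r was 0.91 for miR-451 with miR-144-3p, 0.95 with miR-144-5p and 0.97 between the arms. Centring took the group means out of these r, but left P14 (Non-union) and P17 (Union) in. No relation was tested within a single group. The 3 arrays highest for these miRs were also the 3 brightest without them, P17 at 342843, P18 at 288612 and P14 at 269523 units. The part of array brightness in the relations was not tested.

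**Figure D4:**
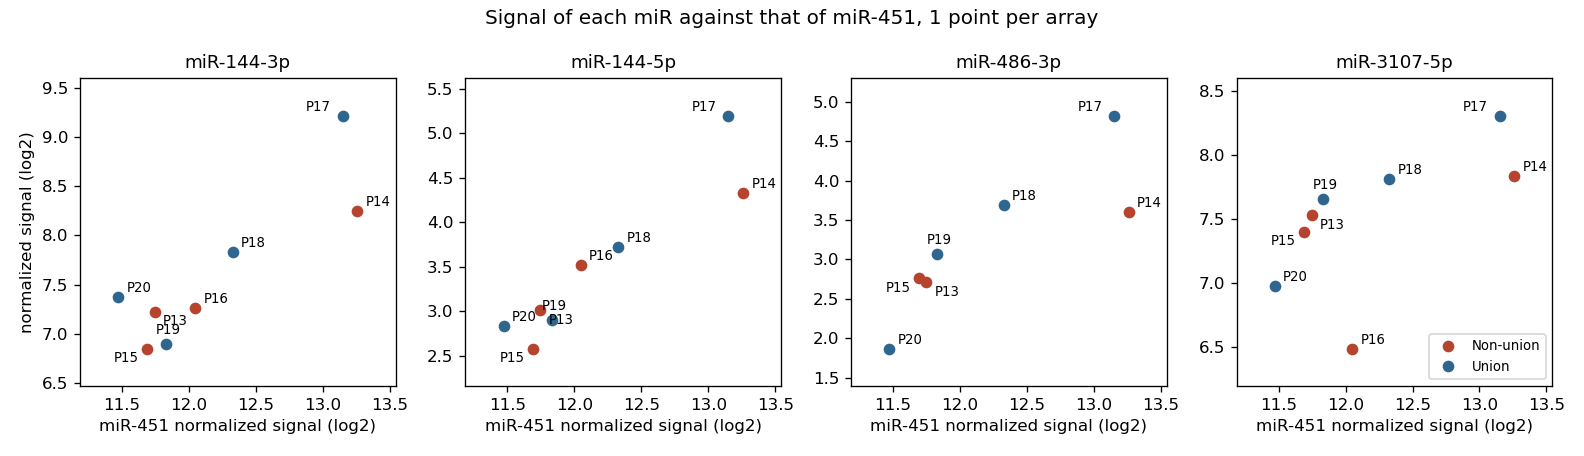
Normalized signal (log2) of miR-144-3p, miR-144-5p, miR-486-3p and miR-3107-5p against that of miR-451, 1 point per array, Non-union in red and Union in blue. The cluster miRs follow miR-451 with r of 0.87 and 0.93, and in the right panel P16 lies below the other arrays.

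The entries of the miR-486 locus were set against the cluster and against skeletal muscle, the other tissue that makes miR-486. Muscle was represented by the mean log2 signal of both miR-133 guide strands on the array (miR-133a-3p and miR-133b-3p), miR-1a-3p and miR-206-3p. This mean was 13.42, 13.61, 13.36 and 12.33 on P13 to P16 and 13.54, 13.28, 13.48 and 13.10 on P17 to P20. P16 was far below the other arrays, and P20 came next. The normalized signals of miR-3107-5p were 7.53, 7.83, 7.39 and 6.48 on P13 to P16 and 8.30, 7.81, 7.65 and 6.97 on P17 to P20, with the same 2 arrays lowest.

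MiR-3107-5p had an r of 0.88 and a rho of 0.83 with the muscle mean (two-sided exact permutation tests over 8 arrays, p = 0.00327 and 0.0154; adjusted p = 0.0114 and 0.0577). Without P16 and P17, its farthest arrays, r was 0.77 and did not pass over the 6 arrays left (exact permutation p = 0.0778). With miR-451 its r was 0.63 and its rho 0.74 (two-sided exact permutation tests, p = 0.0877 and 0.0458; adjusted p = 0.125 and 0.0960). Without P14 and P17 this r was 0.21. With miR-144-3p and miR-144-5p its r was 0.64 and 0.58 (two-sided exact permutation tests, adjusted p = 0.125 and 0.161; rho 0.62 and 0.71, adjusted p = 0.172 and 0.0960). These 3 relations with the cluster passed unadjusted with no normalization or with scaling to the 75th percentile, where r was between 0.71 and 0.86. The gap between its r with muscle and its r with the cluster was not itself tested.

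The 3 cluster miRs had lower r with the muscle mean. It was 0.36 for miR-451 (rho 0.55), 0.33 for miR-144-3p (rho 0.31) and 0.22 for miR-144-5p (rho 0.45). None passed (two-sided exact permutation tests, adjusted p = 0.443, 0.443 and 0.596 for r and 0.214, 0.462 and 0.287 for rho). Without P14 and P17 the r values were -0.23, -0.19 and -0.48. With no normalization they rose to 0.69, 0.71 and 0.67 over all 8 arrays. None of these passed unadjusted (two-sided exact permutation tests, p = 0.0599, 0.0586 and 0.0798), so that the size of these relations depends on the processing. P16 had the lowest muscle mean and the lowest miR-3107-5p, and after normalization it stood number 4 of 8 for miR-451. That rank depends on the scale. In merged signal P16 was number 6 of 8 for miR-451, within the error of the lowest arrays, and it was the lowest array for miR-144-3p.

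MiR-486-3p could be followed on 7 arrays, P16 not among them. Its normalized signals were 2.71, 3.60 and 2.76 on P13 to P15 and 4.83, 3.69, 3.07 and 1.87 on P17 to P20. Its r was 0.99 with miR-3107-5p (rho 0.93; two-sided exact permutation tests over 7 arrays, p = 0.00159 and 0.00675; adjusted p = 0.00794 and 0.0506), 0.86 with miR-451 (rho 0.86; adjusted p = 0.0114 and 0.0714), 0.82 with miR-144-3p (rho 0.64; adjusted p = 0.0525 and 0.189) and 0.89 with miR-144-5p (rho 0.79; adjusted p = 0.0114 and 0.0960). With the 2 arrays farthest from the median left out, 5 arrays remained, and these r were 0.94, 0.95, 0.30 and 0.69. With the muscle mean its r was 0.68 and 0.13 without its 2 farthest arrays. The array with the lowest muscle signal was missing from this set. After adjustment, r passed with miR-3107-5p, miR-451 and miR-144-5p but not with miR-144-3p, and no rho passed. P15 and P20 had merged signals of 6.02 and 6.05 units for miR-486-3p but normalized signals of 2.76 and 1.87. With other processing of the 7 arrays, its r was between 0.91 and 0.96 with miR-3107-5p and between 0.27 and 0.93 with the muscle mean. It was then between 0.85 and 0.96 with miR-451, between 0.87 and 0.94 with miR-144-3p, and between 0.93 and 0.97 with miR-144-5p.

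**Figure D5:**
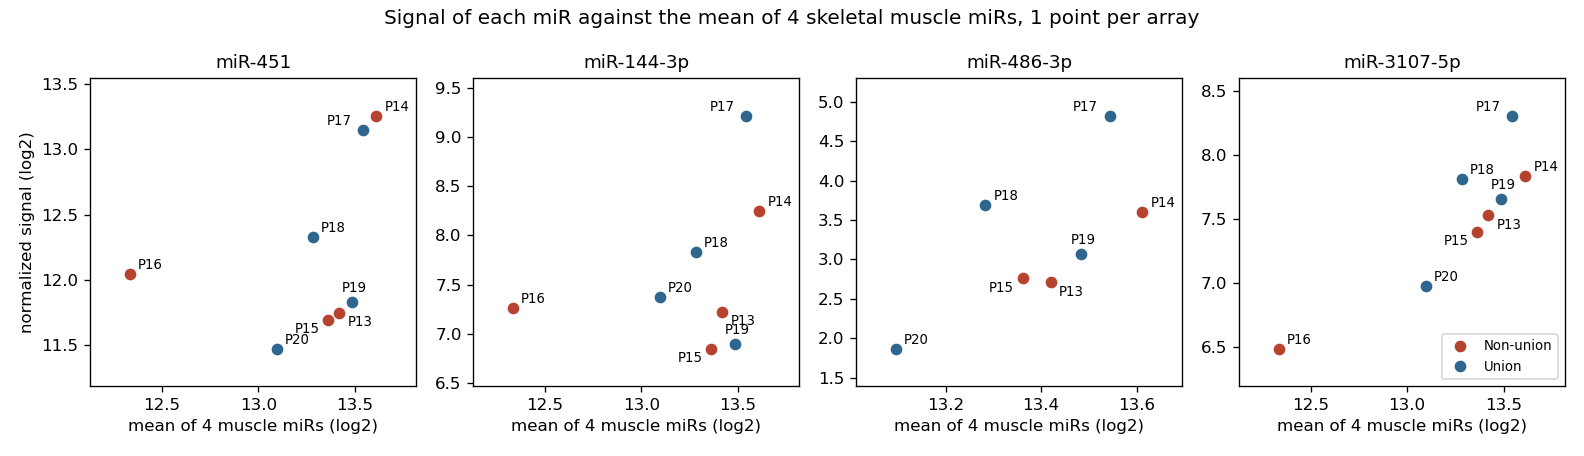
Normalized signal (log2) of miR-451, miR-144-3p, miR-486-3p and miR-3107-5p against the mean log2 signal of 4 skeletal muscle miRs, 1 point per array, Non-union in red and Union in blue. P16, at a muscle mean of 12.33, is lowest for miR-3107-5p but not for miR-451, and it is absent from the panel of miR-486-3p, which was not detected there.

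The miRs most like miR-451 over the 8 arrays were sought among the other 309 miRs detected on all arrays. The 5 with the highest Pearson r were miR-144-5p (0.93), miR-365-3p (0.91), miR-30a-3p (0.90), miR-144-3p (0.87) and miR-30a-5p (0.81), and only these reached 0.8. The median r over all 309 was -0.18. Both cluster partners were thus among the nearest 5, and miR-3107-5p was number 19. Like miR-451, miR-365-3p was highest on P14 and P17, at 8.62 on each, and lowest on P20, at 7.91.

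The miRs most like miR-3107-5p were a different set. The 5 with the highest r were miR-133a-5p (0.95), miR-133b-3p (0.95), miR-26a-5p (0.94), miR-125a-3p (0.93) and miR-1a-3p (0.93). MiR-133a, miR-133b and miR-1a are miRs of striated muscle. MiR-206-3p, the muscle miR of regenerating fibres, had an r of only 0.06 with miR-3107-5p, although it is part of the muscle mean. MiR-133a-5p was 7.03 on P16 and between 8.19 and 9.26 on the other arrays, and miR-1a-3p was 13.26 on P16. MiR-451 was number 49 in this order. These likenesses are descriptions over 8 arrays that share their normalization.

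MiR-101a-3p, looked up because its seed is close to that of miR-144-3p, was detected on all arrays. It had an r of 0.81 with miR-144-3p, but its normalized signal spanned only 0.93 on the log2 scale. Its difference of Non-union minus Union was -0.16 (limma, SE 0.23, adjusted p = 0.654). A miR with a close seed thus showed no group difference beyond the spread.

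Other miRs that red cells hold in large amounts had negative r with miR-451 over the arrays. Of 13 such miRs, 9 were detected on all arrays: miR-16-5p, miR-15a-5p, miR-15b-5p, miR-92a-3p, miR-25-3p, miR-93-5p, miR-103-3p, miR-107-3p and miR-185-5p. MiR-182-5p, miR-183-5p and miR-363-3p were detected on no array and miR-96-5p on 3. None of the 9 passed the unadjusted threshold, and their differences ran from -0.14 to 0.16 with a median of 0.01. Their r with miR-451 ran from -0.70 for miR-92a-3p to -0.20 for miR-103-3p, with a median of -0.52, beside -0.18 over all miRs. These miRs are also made by most other cells. Their summed merged signal was 5372 to 6216 units in the Non-union group and 5368 to 8431 units in the Union group.

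Of 5 miRs known to fall as erythroid cells mature, all were detected on all arrays and none passed the unadjusted threshold. Their differences ran from -0.16 to 0.49 with a median of 0.18. MiR-221-3p and miR-222-3p, a pair from 1 cluster that restrains the KIT receptor of early erythroid cells, had r of 0.75 and 0.69 with miR-451. MiR-24-3p, miR-150-5p and miR-155-5p had r of -0.08, -0.12 and -0.57. The list therefore did not move as 1 block with miR-451.

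Markers of the other cell types in callus were read beside the members. Of 6 muscle miRs, 4 were tested and none passed, with a median difference of -0.30. The difference was 0.44 for miR-206-3p and between -0.52 and -0.15 for the other 3. Their summed merged signal was 14855 to 62359 units in the Non-union group and 36945 to 95817 units in the Union group, highest on P17 as were the members. Of the muscle miRs, miR-208b-3p was detected on 2 arrays and miR-499-5p on 5. Of 4 myeloid and leukocyte miRs, miR-223-5p was detected on no array, 3 were tested and miR-223-3p was lower in the Non-union group, by -1.13 (limma, unadjusted p = 0.0464, adjusted p = 0.346), as were 4.19% of all miRs tested. This list was highest on P20, where normalized miR-451 was lowest but miR-144-3p was number 4 of 8, and its mean had an r of -0.50 with miR-451. All 4 cartilage miRs, the arms of miR-140 and miR-455, passed the unadjusted threshold and were higher in the Non-union group, with a median difference of 1.43, beside 9.68% of all miRs tested that were higher there, but none passed after adjustment. The mean of the cartilage list had an r of -0.43 with miR-451. The endothelial arms miR-126-3p and miR-126-5p did not pass, with differences of -0.26 and -0.36, and their mean had an r of -0.44 with miR-451. Over the same arrays, miR-3107-5p had r of -0.74 with the cartilage mean, -0.39 with the myeloid mean and -0.02 with the endothelial mean. Its r was -0.79 with the mean of the miRs that fall as erythroid cells mature and -0.70 with that of the other red cell miRs. These r were not tested, so that its high r with muscle stands beside negative r of similar size. The part of the other cell types in the values of the members was not tested.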

How the data were processed

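The authors scanned the arrays, read them with Agilent software (Feature Extraction 10.10.1.1, array design on mm9) and deposited for each array background-corrected signal intensity values on a linear scale, merged miR signals and calls of detection. A deposited table of their log2 values was used as an alternative only. In the order of the study's methods, log2 was taken of the merged signals, followed by quantile normalization and by tests on the miRs detected in all samples (R 4.3.3, limma 3.58.1, lmFit and eBayes, two-sided, Benjamini-Hochberg adjustment over all miRs tested). Normalizing over all 1079 murine miRs and taking the software's detection calls, which left 310 miRs, were choices made here. The deposited merged signal is 0.1 where a miR was not detected. A single value was tested over all 70 arrangements of the arrays, with a smallest two-sided p of 0.0286. Python 3.11.15, scipy 1.17.1, matplotlib 3.10.9 and RNAfold 2.7.2 served for correlations, figures and folds.

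Named were the members, the miR-3107 entries, the tissue lists and the 5 miRs most like miR-451 and most like the brightest miR-486 entry detected on all arrays. As no such entry existed, miR-3107-5p took its place, chosen after its values were seen, as were miR-101a-3p and 9 of the 15 relations. Members and lists were chosen with earlier results of these data known. The alternatives were other normalizations, signal summaries, filters, background correction and tests, and leaving out each array. The fit was tested on simulated data. Arrays have no sequencing depth, and whether the mice of a group shared litters or days is not given in the sources used here. Sequences come from another genome build than the array design, whose own coordinates were not used.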

Additional observations from a re-analysis of the deposited data

Results flagged for a closer look

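A total of 4 values stood apart from the other arrays of their group by Dixon's test, all in miRs or lists read beside the members and none in a member. The signal of miR-133b-3p on P16 was 12.91, with the other 3 Non-union arrays all at 13.83, where they held the same rank and so the same quantile. On P20 of the Union group, miR-142-3p was 12.77 (others 10.88 to 10.98), miR-142-5p was 9.39 (others 7.55 to 7.81), and the list of myeloid and leukocyte miRs had a mean of 12.00 (others 10.01 to 10.16). MiR-451 was lowest on P20, at 11.47. In all, 4 of 78 groups of values were singled out, beside 3.9 that chance gives.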

How the results depend on the processing

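None of miR-451, miR-144-3p, miR-144-5p and miR-3107-5p reached an unadjusted p of 0.05 for the group difference under any of the 19 alternatives. The difference of miR-451 lay between -0.41 and -0.01 under the 11 alternatives that kept all arrays, and between -0.38 (without P14) and 0.31 (without P17) with 1 array left out, where its sign turned in 5 of 8 cases. MiR-144-3p lay between -0.59 and -0.35, and between -0.74 (without P19) and 0.027 (without P17). MiR-144-5p lay between -0.66 and -0.08, and between -0.63 (without P14) and 0.22 (without P17). MiR-3107-5p lay between -0.54 and -0.28, and between -0.61 and -0.10, with no change of sign. The count of all miRs with an unadjusted p under 0.05 was 43, 33 to 46 with all arrays kept, and 18 (without P17) to 115 (without P19) with 1 left out. The count after adjustment, 1, became 0 with the 75th percentile over all murine miRs, no normalization, normexp or the t-test, 2 with quantile normalization over the detected miRs or with no filter, and 0 to 12 (without P19) with 1 array left out. Without P14 and P17, r fell to 0.57 for miR-451 with miR-144-3p and to 0.79 between the arms of miR-144, and it turned to -0.23, -0.19 and -0.48 for miR-451, miR-144-3p and miR-144-5p with the muscle mean and to -0.073 for miR-144-5p with miR-3107-5p. With no normalization, r of miR-3107-5p with miR-451, miR-144-3p and miR-144-5p rose to 0.86, 0.84 and 0.84 (two-sided exact permutation p = 0.00422, 0.00848 and 0.00754), and r of miR-486-3p with the muscle mean to 0.93; the cause was not tested. The same 3 relations of miR-3107-5p also passed unadjusted with the 75th percentile over the detected miRs (r of 0.78, 0.72 and 0.75) or over all murine miRs (0.76, 0.71 and 0.75), and that with miR-144-5p with normexp (0.72). No paired analysis was made, because each array came from its own mouse and the sources give no pairing between the groups. Signals near the detection limit, those of miR-144-5p and the 3p arms of miR-486 and miR-3107, carry the largest errors.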
